A study of Mus musculus with 2 samples.

Results

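Chemokines are small secreted proteins that guide cells along a gradient, and their receptors are G protein-coupled receptors on the cells that migrate. In bone marrow, homeostatic chemokines hold stem cells, B cell progenitors and neutrophils in place, while inflammatory and interferon-induced chemokines recruit cells during infection. The 54 genes described here are all genes of the array's annotation whose symbol is Ccl, Cxcl, Cx3cl, Xcl, Ccr, Cxcr, Cx3cr or Xcr followed directly by a number, of 19057 named genes. They comprise 36 ligand genes and 18 receptor genes, read by 79 of 45281 probes, and their symbols rather than any measured value chose them.

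The study set bone marrow RNA from the femora of wild type mice against that of Dnmt2-/- mice, both aged 8 days. Dnmt2 (gene symbol Trdmt1) methylates cytosine in certain transfer RNAs, and the study's title concerns blood formation in its absence. The labels give 1 Illumina bead array for each genotype and neither the strain nor the number of animals behind an RNA. With 1 array per genotype no test was possible and no difference has an error, so every difference is one between 2 hybridised RNAs. Having so few arrays limits how precise any value can be.

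The array labelled Dnmt2-/- was brighter near background, with a median signal of 100.2 intensity units against 95.1, and 43.2% against 41.4% of probes were detected (detection p-value below 0.01). Each signal is therefore given beside its height over the array's fitted background, which was 90.9 units for wild type and 94.9 for Dnmt2-/-. The marrow genes Mpo, Elane, Ctsg, S100a8, S100a9, Hbb-bs and Hba-a1 were detected on both arrays and lay within 1.10-fold of each other. Markers of other tissue were higher on the Dnmt2-/- array. All 4 cartilage markers were at least 1.5-fold higher (median log2 ratio 1.63, Col2a1 3.90-fold), as were 4 of 5 muscle markers (Mb 3.86-fold). All 4 endothelial markers lay above 0, none by 1.5-fold. The summed heights over background went from 422.4 to 1935 units for cartilage, 1595 to 2922 for muscle and 741.1 to 1112 for endothelium. The part of this in the values below was not tested. The brightest Trdmt1 probe read 112.4 on the wild type and 148.8 on the Dnmt2-/- array (log2 0.62). Another probe detected on both arrays read 106.0 and 107.6 (log2 -0.27). The remaining probes were detected on the Dnmt2-/- array only, at 113.3 against 84.1 and 118.2 against 97.1 units. The brightest probe thus did not bear out the label, and the probes differed in direction. Where they lie relative to the deletion was not analysed here. The X-linked Xist read 822.7 and 92.8, and the Y-linked Eif2s3y 89.8 and 466.8. Genotype and the sex-linked difference cannot be told apart in any value below. In whole marrow, fewer cells of a type and less RNA per cell cannot be told apart either.

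The 250 bases upstream of the annotated start are shown for the genes at the ends of the range, because motifs bound by interferon-activated and inflammatory factors are known from chemokine promoters. Cxcl9 and Cxcl14 were the lowest members on the Dnmt2-/- array and Ccl9 and Ccl3 the highest, and Cxcl10 neighbours Cxcl9 but was not detected. Capitals mark matches to 4 motifs, namely GAS (TTCNNNGAA), the core that interferon regulatory factors bind (IRF core, GAAANNGAA) and the kappaB consensus on both strands, and the TATA box (TATAAA) on the gene's strand.
Cxcl9: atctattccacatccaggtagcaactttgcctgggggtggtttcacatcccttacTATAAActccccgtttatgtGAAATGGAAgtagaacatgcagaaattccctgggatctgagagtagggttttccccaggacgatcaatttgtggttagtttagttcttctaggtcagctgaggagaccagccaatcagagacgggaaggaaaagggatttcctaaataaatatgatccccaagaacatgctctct
Cxcl10: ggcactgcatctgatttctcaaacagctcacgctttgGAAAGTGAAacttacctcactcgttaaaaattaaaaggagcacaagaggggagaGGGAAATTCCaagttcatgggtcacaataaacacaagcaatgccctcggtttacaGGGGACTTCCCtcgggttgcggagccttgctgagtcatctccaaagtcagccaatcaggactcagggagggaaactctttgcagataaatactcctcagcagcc
Cxcl14: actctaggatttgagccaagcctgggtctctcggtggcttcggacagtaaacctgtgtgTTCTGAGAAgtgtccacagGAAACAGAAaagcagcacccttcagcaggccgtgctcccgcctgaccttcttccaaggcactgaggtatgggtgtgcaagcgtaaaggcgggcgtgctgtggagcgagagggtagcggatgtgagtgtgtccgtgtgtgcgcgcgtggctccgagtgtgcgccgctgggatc
Ccl9: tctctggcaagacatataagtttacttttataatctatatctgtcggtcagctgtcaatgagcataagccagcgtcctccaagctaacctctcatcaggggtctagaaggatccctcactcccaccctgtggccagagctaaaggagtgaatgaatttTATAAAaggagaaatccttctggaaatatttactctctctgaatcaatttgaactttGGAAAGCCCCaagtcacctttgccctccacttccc
Ccl3: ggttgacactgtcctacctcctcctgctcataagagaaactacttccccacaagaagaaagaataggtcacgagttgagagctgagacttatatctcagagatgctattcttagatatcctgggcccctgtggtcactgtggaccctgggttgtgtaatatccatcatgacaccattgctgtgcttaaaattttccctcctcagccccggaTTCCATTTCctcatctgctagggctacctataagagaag

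These stretches come from RefSeq (GRCm38.p6), all on the minus strand, at chr5:92328080-92328329, chr5:92348890-92349139, chr13:56296552-56296801, chr11:83578637-83578886 and chr11:83649379-83649628, and are written 5′ to 3′ along the gene. The Cxcl9 stretch held an IRF core match and the TATA box letters at -195 from the start. The Cxcl14 stretch held a GAS match and an IRF core match. The Cxcl10 stretch held an IRF core match and 3 kappaB matches, of which a pair overlap. The Ccl9 stretch held a kappaB match and the TATA box letters at -92, and the Ccl3 stretch an IRF core match on the opposite strand. Among the lower and higher genes shown, the IRF core stood in the Cxcl9, Cxcl14 and Ccl3 stretches and not in the Ccl9 stretch. Among all 32851 stretches of this length in the table, 7.02% held GAS, 7.13% the IRF core, 7.25% kappaB and 7.59% the TATA box. Of the 54 genes, 40 matched the table by symbol, with 44 stretches between them, and 10 of these (22.7%) held kappaB, 10 (22.7%) a TATA box, 8 (18.2%) the IRF core and 4 (9.09%) GAS. The neutrophil-attracting genes Cxcl1, Cxcl2 and Cxcl3 each held a pair of overlapping kappaB matches. A match describes letters only and was counted wherever in the stretch it lay, also for the TATA box. Ccl5 is named here without a stretch.

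Most chemokine and receptor genes gave little signal in this marrow. Of the 54 genes, 21 were detected on both arrays, 4 on 1 array and 29 on neither, whereas 51.1% of all named genes were detected on both. Of all 19057 named genes, 985 were detected on the Dnmt2-/- array only and 624 on the wild type array only. Ligand and receptor genes were detected on both arrays at 15 of 36 and 6 of 18. Among the 21, 17 had a log2 ratio (Dnmt2-/- over wild type) below 0, where 51.7% of all 9746 genes detected on both arrays did. Before background correction and normalization, 13 of the 21 read higher on the Dnmt2-/- array, the brighter one near background. The sign of many of these ratios thus depends on those steps. The count below 0 was 13 with median scaling, which moved the median of all genes to 0.14. There, as in the values reported here, 17 of the 21 lay below the all-gene median. The median log2 ratio was -0.20 over the 21 genes, -0.20 over the 15 ligands and -0.16 over the 6 receptors, against -0.02 over all genes. The receptor median was 0.01 with median scaling.

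Differences of at least 1.5-fold were found in 5 of the 21 genes, and all 5 were ligands. Cxcl9, Cxcl14 and Ccl5 were lower on the Dnmt2-/- array and Ccl9 and Ccl3 higher. Over all genes 5.16% were lower by that much and 6.61% higher. At 2-fold the same 3 genes were lower and none of the 21 was higher, where 0.544% of all genes were lower and 1.08% higher. No receptor gene detected on both arrays reached 1.5-fold in either direction.

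**Figure D1:**
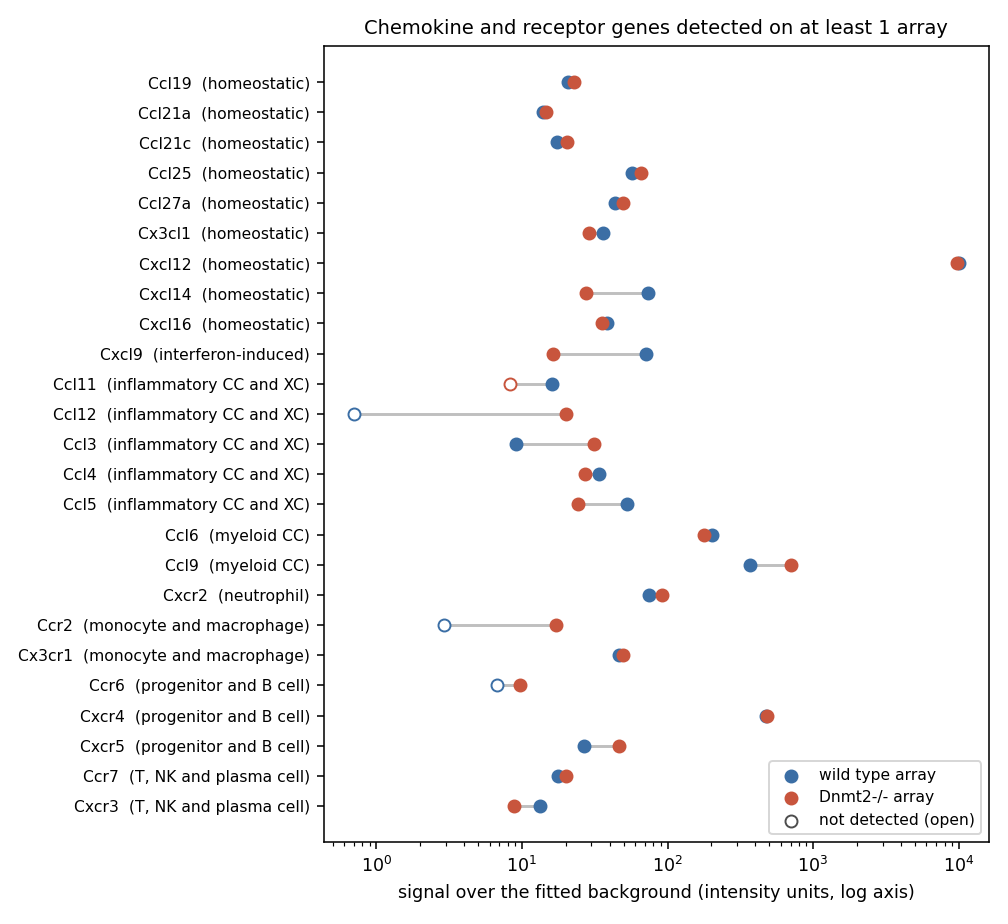
Signal over the fitted background (horizontal log axis, intensity units) for the 25 chemokine and receptor genes detected on at least 1 array, with 1 point per array (blue, wild type; red, Dnmt2-/-; open, not detected). The points lie well apart for Cxcl9, Cxcl14, Ccl5, Ccl9 and Ccl3 among the genes detected on both arrays. Heights may be compared within a row only, since each row is a different probe.

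**Figure D2:**
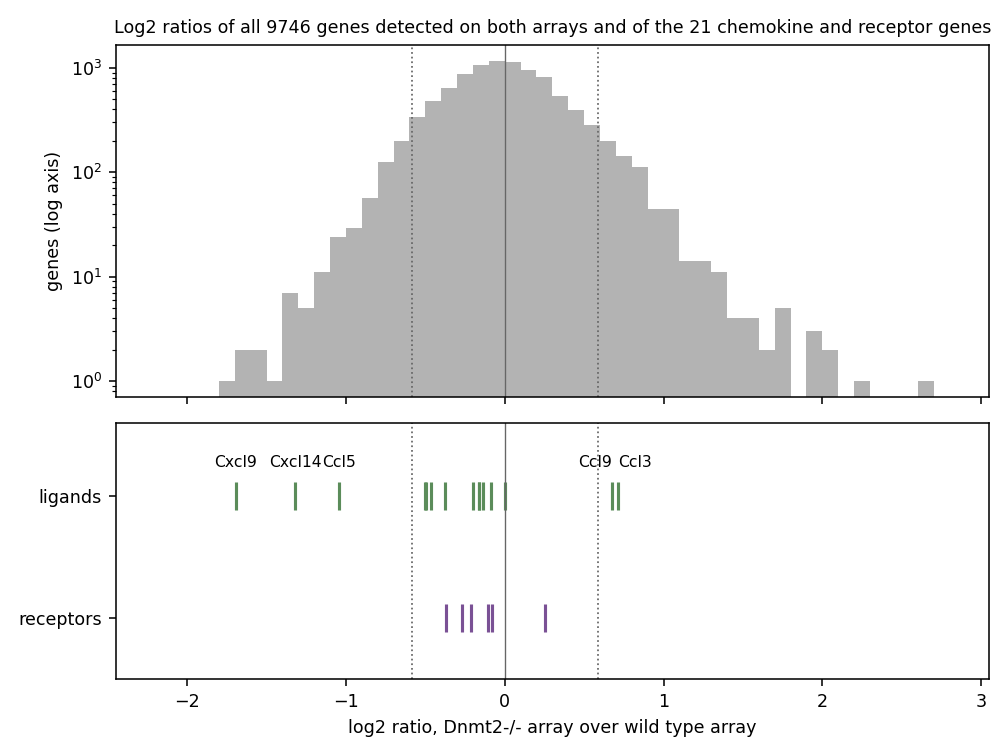
Log2 ratios of the 9746 genes detected on both arrays (upper panel, number of genes on a log axis) and of the 15 ligand and 6 receptor genes among them (lower panel, 1 tick per gene). Dotted lines mark 1.5-fold, past which lie Cxcl9, Cxcl14 and Ccl5 on the lower side and Ccl9 and Ccl3 on the higher side.

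Among the ligands grouped here as homeostatic, which can be made without inflammation, Cxcl14 alone was 1.5-fold apart. The marrow retention factor Cxcl12 was close to equal on the arrays. Cxcl12, which binds Cxcr4 and is made by marrow stromal cells, read 10127 units on the wild type and 9809 on the Dnmt2-/- array by its brightest probe. That probe was the 176th brightest on both arrays, so quantile normalization, which equalises ranks, set its log2 ratio to exactly 0. Further Cxcl12 probes, annotated to other RefSeq transcripts, read 740.2 and 970.3 (log2 0.23) and 619.5 and 735.9 (log2 0.05). The remaining Cxcl12 probes, 1 for each of those transcripts, were not detected on either array. All 3 detected probes thus lay between 0 and 0.23 on the log2 scale.

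Cxcl14, a constitutively made chemokine of epithelial and connective tissues, was 2.50-fold lower on the Dnmt2-/- array. Its brightest probe read 164.1 units on the wild type and 122.5 on the Dnmt2-/- array, which is 73.2 and 27.7 over background, a log2 ratio of -1.32. Its second probe read 129.3 and 111.6, a log2 ratio of -0.97. Both probes were detected on both arrays and lower on the Dnmt2-/- array. Cxcl14 ranked 12th from the lowest of the 9746 genes. Its difference ran from 1.51-fold to 2.52-fold lower over 6 other processing settings, 1 of which averages the detected probes and cannot move genes with 1 such probe. The markers of stroma (Lepr, Kitl, Pdgfrb, Col1a1 and Alpl) summed to 3127 units over background on the wild type and 4793 on the Dnmt2-/- array. Pdgfrb, Col1a1 and Alpl were detected and higher on the Dnmt2-/- array, Lepr and Kitl were not detected on either, and their part in the Cxcl14 value was not tested.

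Both membrane-anchored ligands of this class were slightly lower. Cx3cl1 (fractalkine), which binds Cx3cr1, read 127.2 and 123.7 units on the wild type and Dnmt2-/- arrays, or 36.3 and 28.9 over background, a log2 ratio of -0.50. Cxcl16, which binds Cxcr6, read 129.4 and 130.3 units, or 38.5 and 35.4 over background, a log2 ratio of -0.38. Neither reached 1.5-fold, and both stayed below 0 in the 5 settings that could move them.

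The ligands that guide lymphocytes were close to equal. Ccl19 and Ccl21a, ligands of Ccr7, read 111.8 and 117.4 units and 105.0 and 109.5 units on the wild type and Dnmt2-/- arrays, with log2 ratios of -0.16 and -0.14. Ccl21c, a near-identical copy of Ccl21a whose probes may share target RNA, read 108.2 and 115.1 units with a log2 ratio of -0.09. Its dimmer probe was detected on the Dnmt2-/- array only, at 104.7 against 92.8 units. Ccl25, the ligand of Ccr9, read 147.9 and 161.0 units with a log2 ratio of -0.16. A second Ccl25 probe, detected on the wild type array only, gave -0.19 at 98.3 and 100.2 units, and a probe not detected on either array gave 0.30 at 94.3 and 105.2 units. Ccl27a, the ligand of Ccr10, read 134.8 and 143.9 units with a log2 ratio of -0.20, while a second detected probe at 103.6 and 117.0 units gave 0.22. With median scaling Ccl21c, Ccl25 and Ccl27a lay above 0. The B cell attractant Cxcl13 and Ccl17, Ccl22, Ccl28 and Cxcl17 were not detected on either array.

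Of the 3 ligands known for induction by interferon gamma, which all bind Cxcr3 on activated T and NK cells, only Cxcl9 was detected, and it was 3.23-fold lower on the Dnmt2-/- array. It read 162.4 units on the wild type and 111.2 on the Dnmt2-/- array, or 71.4 and 16.3 over background, a log2 ratio of -1.69. It was the 2nd lowest of the 9746 genes, and 1.63-fold to 3.30-fold lower over 5 other settings. Cxcl10 read 94.4 and 88.8 units by its brightest probe, at detection p-values of 0.0614 and 0.99. Cxcl11 read 91.3 and 93.5 units by its brightest probe. Neither was detected on either array, so no difference is given for them.

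Other genes of the interferon pathway are given beside Cxcl9. Of 31 listed genes measured, 25 were detected on both arrays, 10 of them at least 1.5-fold lower and 0 at least 1.5-fold higher on the Dnmt2-/- array, with a median log2 ratio of -0.46. The shares over all genes are 5.16% lower and 6.61% higher. The lowest were Ifi27l2a (3.18-fold lower), the double-stranded RNA sensor Oas1g (2.51-fold), the ubiquitin-like Isg15 (2.004-fold) and the membrane protein Bst2 (1.89-fold). Oas1g has 3 further probes that were not detected on either array, and a second detected probe gave a log2 ratio of -1.26. Interferon gamma itself, Ifng, read 93.0 and 95.05 units and was not detected. Its receptor genes Ifngr1 and Ifngr2 lay at log2 0.10 and 0.05. Irf1, a transcription factor induced by interferon gamma, lay at log2 0.23. Across the list, 17 of the 25 genes detected on both arrays lay below 0 and 8 above. Igtp and Psmb9 were 1.52-fold and 1.62-fold lower, while Irgm1 lay at log2 0.005. Some dendritic cell markers were lower as well. Of 5 measured, Siglech (1.55-fold), Zbtb46 (1.82-fold) and Bst2, which stands on both lists, were detected on both arrays and lower, Flt3 was detected on the wild type array only, and Clec9a was not detected on either. They summed to 371.0 and 238.9 units over background, and their part in the Cxcl9 value was not tested.

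The inflammatory CC ligands differed in both directions. Ccl5, made by T and NK cells, read 143.5 units on the wild type and 119.2 on the Dnmt2-/- array, or 52.5 and 24.4 over background, and was 2.06-fold lower (log2 -1.05). Over 5 other settings it was 1.35-fold to 2.07-fold lower, and it missed 1.5-fold without background correction and in the authors' processed values. Ccl3, an attractant of monocytes and T cells, read 9.07 units over background on the wild type and 31.0 on the Dnmt2-/- array, and was 1.64-fold higher (log2 0.71). Over those settings it was 1.16-fold to 1.79-fold higher and passed 1.5-fold in 2 of 5. Ccl4, which is often made together with Ccl3, read 125.0 and 121.8 units, or 34.0 and 27.0 over background, a log2 ratio of -0.50. A dimmer Ccl4 probe was not detected on either array and lay at log2 0.04.

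Several T cell and macrophage markers were also lower. The T and NK cell markers (Cd3d, Cd3e, Cd3g, Cd247, Ncr1, Klrb1c, Gzmb and Nkg7) summed to 994.6 units over background on the wild type and 636.0 on the Dnmt2-/- array. Of the 5 detected on both arrays 4 were at least 1.5-fold lower and Cd247 was 1.81-fold higher, while Ncr1, Klrb1c and Gzmb were not detected on either. The macrophage markers (Adgre1, Cd163, C1qa, C1qb, C1qc, Mrc1, Vcam1 and Csf1r) summed to 5429 and 4913 units. Of 7 detected on both arrays Adgre1, C1qa and C1qc were at least 1.5-fold lower and C1qb 1.45-fold lower, while Mrc1, Vcam1 and Csf1r lay at log2 -0.06, -0.00 and 0.20. Cd163 was detected on the wild type array only. The part of either cell type in the Cxcl9, Ccl5 and Ccl4 values was not tested.

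Ccl11 and Ccl12 were each detected on 1 array. The eosinophil attractant Ccl11 (eotaxin) read 106.9 units on the wild type array and 103.1 on the Dnmt2-/- array. Its detection p-value of 0.0108 on the latter just missed the limit, and it was 1.46-fold lower there by its plain ratio (log2 -0.55). A second Ccl11 probe was not detected on either array. Ccl12, a mouse ligand of Ccr2, went undetected on the wild type array at 91.6 units, read 114.8 on the Dnmt2-/- array, and was at least 1.59-fold higher. Among all genes detected on the Dnmt2-/- array only, 19.2% had a bound of at least 1.5-fold. The second Ccl12 probe was not detected on either array. Ccl1, Ccl2, Ccl7, Ccl8, Ccl20, Ccl24, Ccl26 and Xcl1 were not detected on either. Ccl8 came nearest, at 101.5 and 98.1 units, with a wild type detection p-value of 0.0125.

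Ccl6 and Ccl9, CC ligands found in rodents that bind Ccr1 and are made by resting myeloid cells, differed in direction. Ccl9 read 458.8 units on the wild type and 800.4 on the Dnmt2-/- array, or 367.8 and 705.6 over background, and was 1.59-fold higher (log2 0.67). Over 5 other settings it was 1.502-fold to 1.79-fold higher, and it passed 1.5-fold in 5 of 5. Ccl6 read 291.4 and 273.3 units, or 200.5 and 178.5 over background, a log2 ratio of -0.46. Ccl9 is also a product of osteoclasts. Osteoclast markers (Ctsk, Acp5, Oscar, Dcstamp, Ocstamp, Calcr, Atp6v0d2, Car2, Itgb3 and Nfatc1), listed after the values were seen, summed to 9552 and 17423 units over background. Of 7 detected on both arrays 6 were higher on the Dnmt2-/- array, 3 by at least 1.5-fold, while Calcr and Atp6v0d2 were not detected on either. Their part in the Ccl9 value was not tested.

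Gene position was not used in choosing the members. The RefSeq annotation places 14 of the 54 genes on chromosome 11, 11 on chromosome 9, and Cxcl11 and 9 others on chromosome 5. Ccl5, Ccl9, Ccl6, Ccl3 and Ccl4 follow each other on chromosome 11 with no other protein-coding gene between them, and all 5 were detected on both arrays. Along this order the log2 ratios were -1.05, 0.67, -0.46, 0.71 and -0.50, so each gene differed in sign from its neighbours. These signs were the same in the 5 other settings that could move them. A second group on that chromosome, Ccl2, Ccl7, Ccl11, Ccl12, Ccl8 and Ccl1, had no gene detected on both arrays. On chromosome 5, Art3 comes between Cxcl9 and Cxcl10 when genes are ordered by start coordinate, and where Art3 ends was not examined.

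**Figure D3:**
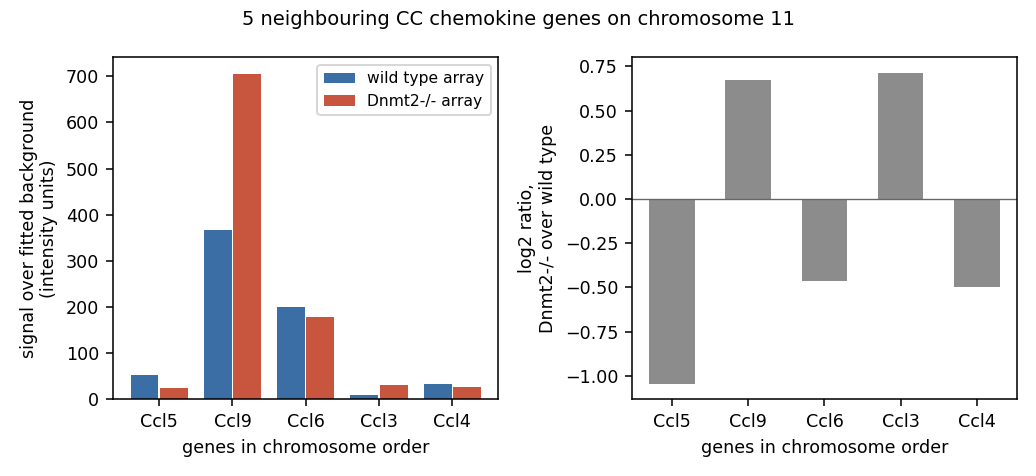
Signal over the fitted background (left, intensity units) and log2 ratio (right) of Ccl5, Ccl9, Ccl6, Ccl3 and Ccl4 in their order on chromosome 11, with 1 array per bar (blue, wild type; red, Dnmt2-/-). The ratio changes sign at each step, from -1.05 for Ccl5 to 0.71 for Ccl3. Bars may be compared within a gene only.

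The neutrophil-attracting ligands Cxcl1, Cxcl2, Cxcl3 and Cxcl15 were not detected on either array. Cxcl1 came nearest at 99.6 and 99.0 units, with detection p-values of 0.014 and 0.0778. Their receptor Cxcr2, which lets mature neutrophils leave the marrow, read 165.1 and 186.4 units, or 74.2 and 91.5 over background, a log2 ratio of -0.08 that was 0.19 with median scaling. Cxcr1, the other neutrophil receptor, was not detected. The neutrophil markers (Ltf, Camp, Ngp, Cd177, Csf3r, Mmp8 and Mmp9) summed to 51668 and 46770 units over background, with 5 of the 6 detected on both arrays lower and Mmp9 1.74-fold higher.

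The receptors of progenitors and B cells showed small differences in both directions. Cxcr4, the receptor for Cxcl12 on stem cells, B cell progenitors and neutrophils, read 567.1 and 579.9 units, or 476.2 and 485.0 over background, a log2 ratio of -0.21. Cxcr5, the receptor for Cxcl13 on mature B cells, read 117.7 and 141.2 units, or 26.7 and 46.3 over background, a log2 ratio of 0.25. A second Cxcr5 probe was detected on the Dnmt2-/- array only, at 116.9 against 94.4 units. Cxcr5 was the only receptor above 0 among the 6 detected on both arrays in the values reported here. Ccr6, on B cells, was detected on the Dnmt2-/- array only, at 104.5 against 97.7 units, 1.05-fold higher by its plain ratio (log2 0.06). Its second probe was also detected on that array only, at 104.2 against 94.1 units. The 4 B cell markers measured (Cd79b, Vpreb1, Igll1 and Ms4a1) had a median log2 ratio of 0.10. Among them Ms4a1, a marker of more mature B cells, was 1.73-fold higher, and its part in the Cxcr5 and Ccr6 values was not tested.

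Receptors of monocytes and macrophages differed from each other. Ccr2, which lets monocytes leave the marrow, went undetected at 93.9 units on the wild type array and read 111.9 on the Dnmt2-/- array, at least 1.47-fold higher. Its second probe, the one annotated to a RefSeq transcript, was not detected on either array, at 83.9 and 85.9 units. Cx3cr1, the receptor for Cx3cl1 on patrolling monocytes, read 137.7 and 144.0 units, or 46.7 and 49.2 over background, a log2 ratio of -0.27. Ccr1, the receptor for Ccl3, Ccl5, Ccl6 and Ccl9, read 92.2 and 87.8 units and was not detected. All 3 monocyte markers measured had a log2 ratio below 0, none by 1.5-fold, with a median of -0.22, and summed to 3451 and 3095 units over background. For Ms4a6c, at 106.6 and 110.6 units or 15.7 and 15.8 over background, the sign depends on normalization.

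Receptors of T, NK, dendritic and plasma cells lay at or near background. Cxcr3, the receptor for Cxcl9, read 104.1 and 103.6 units, or 13.2 and 8.77 over background, a log2 ratio of -0.37. Ccr7, the receptor for Ccl19 and Ccl21, read 108.6 and 115.1 units, a log2 ratio of -0.10 that was 0.04 with median scaling. Cxcr6, Ccr4, Ccr8, Ccr9, Ccr10, the dendritic cell receptor Xcr1, the eosinophil receptor Ccr3 and the receptor-like Ccr1l1 were not detected on either array. Of the 4 eosinophil markers, Epx, Prg2 and Prg3 were lower on the Dnmt2-/- array, with a median log2 ratio of -0.71, and Il5ra, detected on that array only, was at least 1.68-fold higher. Ccr3 read 88.8 and 99.9 units.

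**Figure D4:**
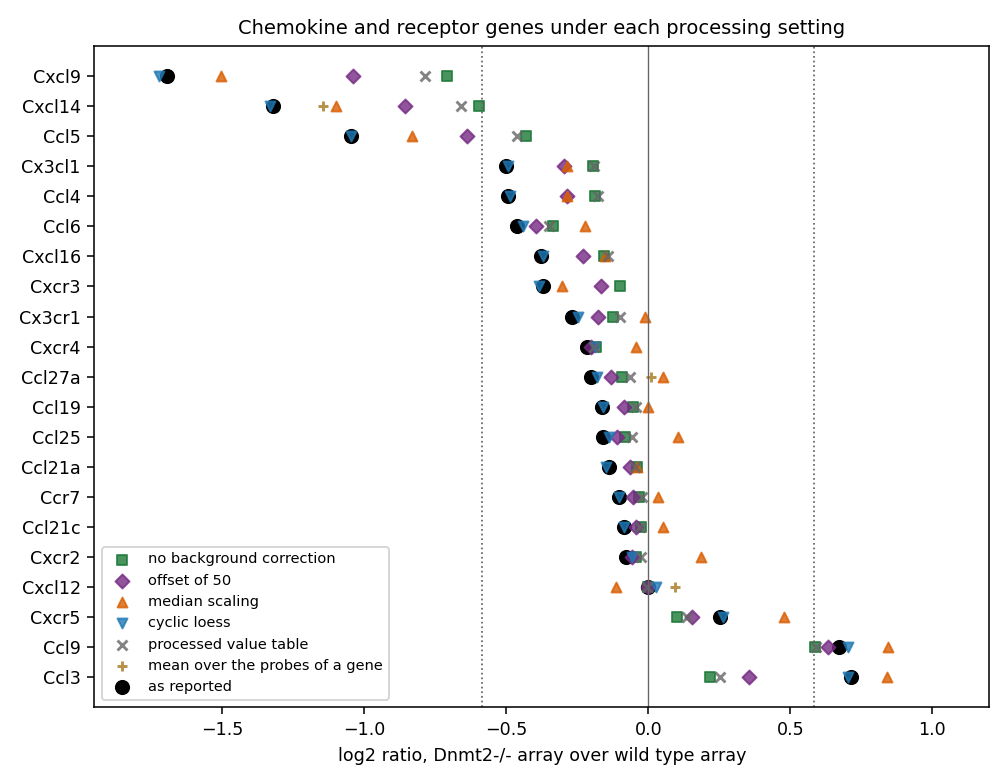
Log2 ratio (horizontal axis, Dnmt2-/- over wild type) of the 21 genes detected on both arrays, as reported (black) and under other processing settings (coloured symbols). The mean over probes is shown for the 3 genes with over 1 detected probe, and Cxcr3 is blank in the authors' normalized table. Dotted lines mark 1.5-fold. Cxcl9 and Ccl9 stay past 1.5-fold in 5 of 5 settings and Cxcl14 in 6 of 6, whereas Ccl5 does so in 3 of 5 and Ccl3 in 2 of 5.

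Chemokine receptors signal through inhibitory G proteins to phosphoinositide 3-kinase, phospholipase C and regulators of the cytoskeleton. Of 48 listed genes of this pathway 39 were detected on both arrays, 3 at least 1.5-fold higher and 1 at least 1.5-fold lower on the Dnmt2-/- array, with a median log2 ratio of -0.11. Over all genes 6.61% were higher and 5.16% lower by that much, and each of these 4 genes fell short of 1.5-fold in at least 1 other setting. Rgs16, which turns off G protein signals, was 1.65-fold higher at 114.1 and 158.7 units. Pik3r1, a regulatory subunit of phosphoinositide 3-kinase, was 1.56-fold higher, with log2 0.71 in a second detected probe. The adaptor Crk was 2.16-fold higher by its brightest probe, but its 2 dimmer probes gave log2 -0.82 and -0.53, and the mean over probes turned the sign, to -0.08. Gng11, a G protein gamma subunit, was 1.69-fold lower at 190.1 and 164.9 units. The inhibitory subunit gene Gnai2 read 3158 and 2325 units, a log2 ratio of -0.51.

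Related genes whose names fall outside the rule, namely other chemokines, scavenging receptors and the attractant receptors Fpr2, C5ar1 and Cmklr1, differed by less than 1.5-fold where detected. Of 12 such genes 9 were detected on both arrays, 3 above and 6 below 0, with a median log2 ratio of -0.14. The platelet chemokines Pf4 and Ppbp lay at log2 -0.18 and 0.19. Ackr1, a scavenger of inflammatory chemokines on erythroid and endothelial cells, read 408.4 and 632.2 units (log2 0.48), and Ackr2, a scavenger of inflammatory CC chemokines, read 136.0 and 180.5 units (log2 0.40). Ackr3, which takes up Cxcl12, was not detected.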

How the data were processed

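Messenger RNA was measured on Illumina MouseWG-6 v2.0 bead arrays, of which each genotype label has 1. The authors deposited a table of non-normalized signal intensity per probe, with background not subtracted, together with detection p-values for every probe. A second deposited table holds intensity that the authors normalized in a way not stated, and served as an alternative. With limma 3.58.1 (R 4.3.3), normexp background correction fitted from the detection p-values was followed by an offset of 16, log2 and quantile normalization. Offset and low signal shrink the folds of dim genes.

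Probes were named from the platform annotation (34885 with 1 gene symbol, 18 with several, 10378 with none here), and all 54 member symbols matched the RefSeq table by Entrez identifier. The probe with the highest mean stood for a gene. Detection was a p-value below 0.01. A gene detected on 1 array only is given as at least N-fold, against the higher of its own value and the lowest detected value of the dimmer array. Every member is accounted for, and genes of the other lists are named when at least 1.5-fold apart, up to 4 in each direction. Genes with a result given outside that rule were chosen after their values were seen. In the interferon list these are Ifng, Ifngr1, Ifngr2, Irf1, Igtp, Psmb9 and Irgm1. Among signalling and related genes they are Gnai2, Pf4, Ppbp, Ackr1, Ackr2 and Ackr3. In the cytokine and NF-kB list they are Tnf, Il1b, Nfkbia, Tnfaip3, Il6, Il1a, Il17a and Ptgs2. The members and lists were chosen with earlier results of these data known. An interferon motif with 1 further A was searched first and matched fewer upstream stretches. Steps were tested on simulated arrays with known differences, which checks the steps and not the error of any ratio here. Alternatives were no background correction, an offset of 50, median scaling, cyclic loess, the authors' normalized table, the mean over a gene's probes, a detection limit of 0.05 and no detection filter.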

Additional observations from a re-analysis of the deposited data

How the results depend on the processing

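The settings of scaling, background and source, and for Cxcl14 the mean over probes, left the 3 lower and 2 higher ligands with the same sign. The number of genes at least 1.5-fold higher, 2 as reported, was 1 without background correction, 1 with an offset of 50, 1 in the authors' normalized values and 4 with no detection filter, which adds Ccl12 and Ccr2. The number at least 1.5-fold lower, 3 as reported, was 2 without background correction and 2 in the authors' normalized values. The median over the members counted, 21 genes as reported, ran from -0.18 to -0.04 over the 8 alternatives, which hold 20 to 54 genes. Against a spread of 0.29 (SD) between probes of a gene, Cxcl9, Cxcl14, Ccl5 and Ccl3 moved by more with no background correction, an offset of 50 and the authors' values, and Ccl4 and Cx3cl1 without background correction and in the authors' values. Over all genes the count at least 1.5-fold higher, 644 as reported, ran from 186 without background correction to 1340 with median scaling. The count lower, 503 as reported, ran from 105 without background correction to 784 with no detection filter. The setting with no filter holds 19057 genes, so its share lower was 4.11%, against 5.16% as reported. With median scaling 13.8% of genes were higher and 1.84% lower by that much, against 6.61% and 5.16% as reported. No paired analysis was possible because each genotype has 1 array and the shared replicate number is 1. Most members lay near background, where a few units decide the ratio.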

Other observations

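Genes of inflammatory cytokines and of NF-kB signalling, which drive many chemokine genes, were close to equal on the arrays. Of 15 listed genes 10 were detected on both arrays, 6 above and 4 below 0, none by 1.5-fold, with a median log2 ratio of 0.08. Tnf read 99.4 and 105.2 units on the wild type and Dnmt2-/- arrays (log2 -0.01), and Il1b 140.8 and 168.0 units (log2 0.11). The NF-kB inhibitor gene Nfkbia read 579.2 and 650.0 units (log2 -0.06), and Tnfaip3, another inhibitor, 101.8 and 118.0 units (log2 0.36). Il6, Il1a, Il17a and Ptgs2 were not detected on either array. Il10, an anti-inflammatory cytokine gene, was detected on the Dnmt2-/- array only, at 123.4 against 87.6 units, and was at least 1.93-fold higher there.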
